A study of Mus musculus with 8 samples.

Results

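Amino acid transporters are membrane proteins that carry amino acids across the plasma membrane or the lysosomal membrane. The 43 genes described here belong to the solute carrier families SLC1, SLC6, SLC7, SLC36, SLC38 and SLC43, with Slc3a1, a partner subunit of an SLC7 carrier, added to them. They were selected by gene symbol, with earlier results of these data known, and each is represented by its probe set with the highest mean signal among those named for that gene alone. All 43 were measured, out of 19938 genes in all. Slc7a11 was left out of the group, and it stands with Slc3a2 and others in a list of further carriers given below.

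The RNA came from mouse cumulus oocyte complexes, each an oocyte with the cumulus granulosa cells that surround it. Mice of 21 to 23 days received 5 IU of equine chorionic gonadotropin, which makes follicles grow, and 44 to 47 h later 5 IU of human chorionic gonadotropin (hCG), which triggers ovulation. Complexes were collected 8 h after hCG. PRKO mice carried a lacZ insertion in both copies of the progesterone receptor gene Pgr, which disrupts both receptor isoforms, and the control PR+/- mice carried it in 1 copy, so no group was without the insertion. The insertion is carried in the germ line and so is not limited to cumulus cells, and the animals were not yet sexually mature. Each array held the pooled complexes of 3 animals, with 4 arrays and 12 animals per genotype.

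Cumulus cells feed the oocyte through gap junctions, and amino acids are among what they pass on. In mouse follicles the oocyte in turn raises the cumulus transcript of Slc38a3, a carrier of histidine, alanine and glutamine. Exchangers such as those of the SLC1 and SLC7 families swap one amino acid for another, sodium-coupled carriers such as those of SLC38 concentrate amino acids inside the cell, and carriers of the lysosomal membrane release the products of protein breakdown.

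Signals are log2 values as deposited, and differences are PRKO minus PR+/- on that scale. The median signal per array lay between 5.35 and 5.46, the lower quartile between 3.92 and 4.00 and the upper quartile between 7.14 and 7.23, and arrays correlated over their probe sets at a Pearson r of 0.988 to 0.990 inside each genotype and of 0.981 to 0.988 across the genotypes. Pgr had signals of 6.09, 7.34, 6.54 and 7.15 on PR+/- arrays 1 to 4 and 5.84, 5.23, 5.54 and 6.17 on PRKO arrays 1 to 4, so the groups overlapped. Its difference was -1.09 ± 0.26 (SE, n = 4 against 4, limma adjusted p = 0.0452). The place of this probe set relative to the insertion is not known here, so the lower signal is only a partial check of the labels. The brightest of 14 cumulus and granulosa markers were Inha (12.36 ± 0.15 in PR+/- and 12.52 ± 0.14 in PRKO, SD) and Tnfaip6 (10.96 ± 0.41 and 11.12 ± 0.40). Not all were bright: Amh, a hormone of growing follicles, read 5.16 to 5.74 in PR+/- and 4.89 to 5.53 in PRKO, below the array median on 3 of 4 arrays of each genotype. Of the 14 markers Fshr, the receptor of follicle-stimulating hormone, fell and 13 did not pass. The brightest oocyte markers were Uchl1 (8.15 ± 0.05 and 8.28 ± 0.17) and Padi6 (7.88 ± 0.53 and 7.77 ± 0.40). Others were dim: Figla, Nobox and Mos read 4.26 to 5.18, below the median of every array. In PR+/- Uchl1 ran against the mean of the oocyte markers. It was 8.21 on replicate 1, where that mean was lowest (5.99), and 8.09 on replicate 4, where it was highest (6.66). In PRKO Uchl1 was higher on replicates 1 and 4 (8.44 and 8.41), as the mean was (6.31 and 6.50).

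Of the 43 transporters, Slc1a4, Slc7a1 and Slc38a7 rose in PRKO complexes, Slc7a4 fell, and 39 did not pass the test (limma, Benjamini-Hochberg adjusted p under 0.05). These 4 are 9.3% of the group, and 2.92% of all 19938 genes passed, 1.43% higher and 1.48% lower. After quantile normalization, 173 of all genes were higher and 303 lower in place of 286 and 296, and after centring each array 166 and 303. The arrays of both genotypes were fully apart for 8 transporters (18.6%), against 10.2% of all genes, and 12 had an unadjusted p under 0.05 (27.9%), against 16.0%. The median difference was -0.01 over the transporters and 0.00 over all genes, and the median absolute difference 0.11 and 0.10. Without any 1 of PR+/- replicates 1, 2 and 3 or PRKO replicates 1, 2 and 3 the number of transporters past the test was 2, and without PR+/- replicate 4 it was 6. Differences were small in both directions: 21 were positive, 22 negative, and 26 lay within 0.15 of 0.

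**Figure D1:**
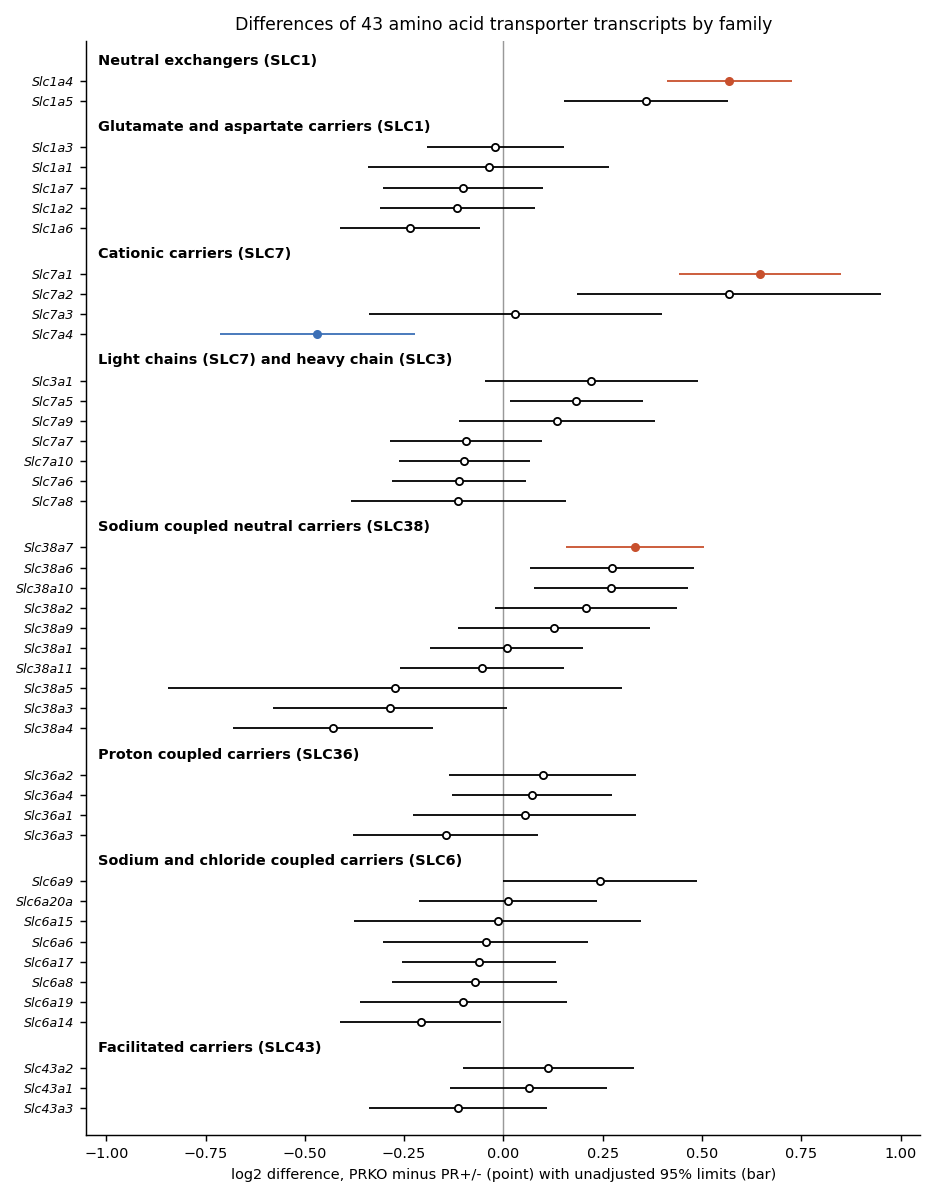
Points give the log2 difference (PRKO minus PR+/-, horizontal axis) of each of the 43 transporters, grouped by family, and bars give the unadjusted 95% limits from limma; filled points passed an adjusted p of 0.05. Slc1a4, Slc7a1 and Slc38a7 lie to the right of 0 and Slc7a4 to the left, while Slc38a5 has the widest limits.

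The neutral exchangers of the SLC1 family are sodium-dependent carriers that exchange alanine, serine, cysteine and threonine, and Slc1a5 also carries glutamine. Slc1a4, which encodes ASCT1, had signals of 6.24, 6.22, 6.13 and 6.20 on PR+/- arrays 1 to 4 and 6.75, 6.83, 6.76 and 6.73 on PRKO arrays 1 to 4. All PRKO arrays were above all PR+/- arrays, and the arrays within each genotype lay close together, with an SD of 0.05 in each. The transcript rose by 0.57 ± 0.07 (SE), which is 1.48-fold (limma adjusted p = 0.00125). Slc1a5, which encodes ASCT2, had 6.15, 6.50, 6.30 and 6.55 in PR+/- and 6.76, 6.76, 6.74 and 6.67 in PRKO. Here too the genotypes did not overlap, and the PR+/- arrays were spread more widely than the PRKO arrays. Its difference of 0.36 ± 0.10 did not pass (limma adjusted p = 0.0758). It passed without PR+/- replicate 4 (0.42, limma adjusted p = 0.0457) and with the oocyte marker mean as a covariate (0.39, limma adjusted p = 0.0368).

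The cationic carriers of the SLC7 family import arginine, lysine and ornithine, and they held the largest rise and the largest fall of the group. Slc7a1, which encodes CAT1, had signals of 8.04, 8.18, 8.30 and 8.32 on PR+/- arrays 1 to 4 and 8.92, 8.70, 8.80 and 8.99 on PRKO arrays 1 to 4. Every PRKO array was above every PR+/- array. The transcript rose by 0.65 ± 0.09 (SE), which is 1.57-fold (limma adjusted p = 0.00298). Adding the theca and stroma marker mean to the fit gave a difference of 0.52 (limma adjusted p = 0.0269), and adding the oocyte marker mean gave 0.68 (limma adjusted p = 0.000656). Slc7a4 is a relative of the cationic carriers whose substrate is not established. Its signals were 6.49, 6.15, 6.26 and 6.08 in PR+/- and 5.84, 5.79, 5.95 and 5.52 in PRKO, so all PRKO arrays were below all PR+/- arrays. It fell by 0.47 ± 0.11, which is 1.38-fold (limma adjusted p = 0.0485). The Slc7a4 call ended without any 1 array other than PR+/- replicate 4 (limma adjusted p 0.0637 to 0.124) and with the theca and stroma covariate (-0.39, limma adjusted p = 0.225).

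Slc7a2, which encodes CAT2, had 4.90, 5.30, 5.52 and 5.82 in PR+/- and 6.32, 5.81, 5.77 and 5.91 in PRKO. The highest PR+/- array lay above the lower 2 PRKO arrays. The difference of 0.57 ± 0.18 was as large as that of Slc1a4 but had a wider error, with an SD of 0.39 in PR+/-, and it did not pass (limma adjusted p = 0.126). It passed without PR+/- replicate 4 (0.71, limma adjusted p = 0.0407) and with the oocyte covariate (0.65, limma adjusted p = 0.0263), and it was 0.29 with the theca and stroma covariate (limma adjusted p = 0.474). Slc7a3, which encodes CAT3, had a difference of 0.03 ± 0.17 (limma adjusted p = 0.956), and PRKO replicate 3 at 5.49 stood above the other PRKO arrays at 4.71 to 4.75.

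**Figure D2:**
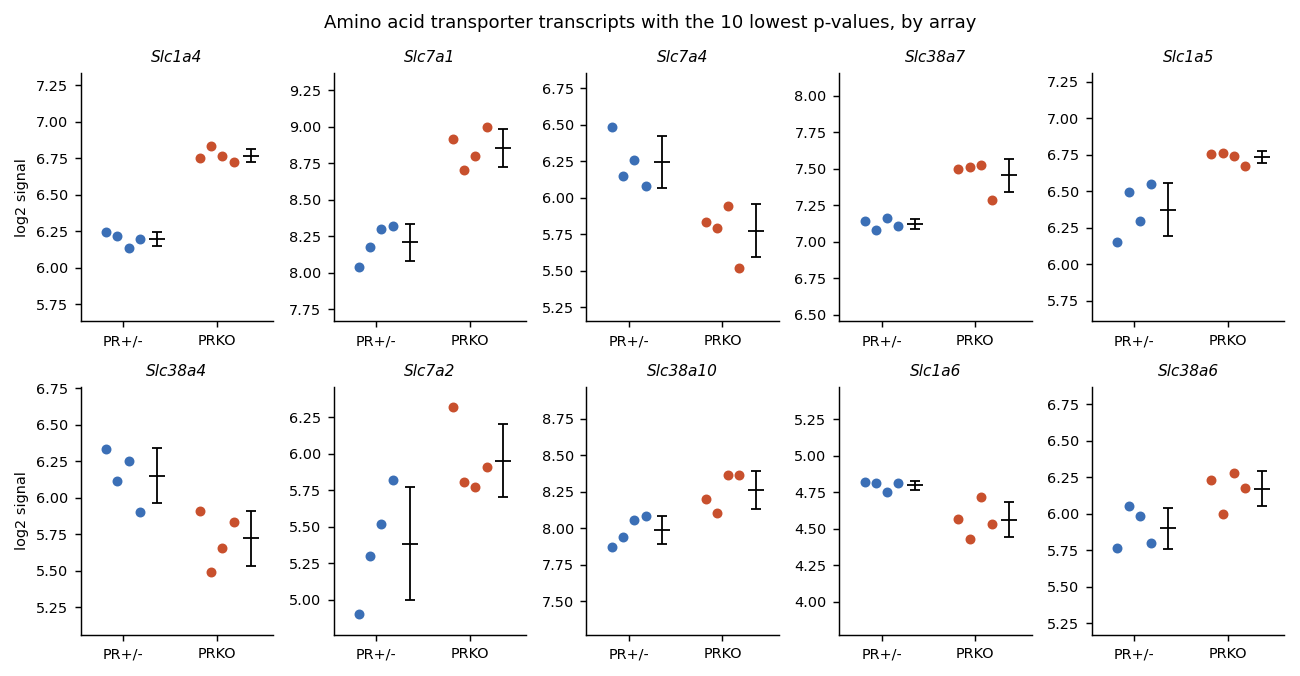
Each panel shows the log2 signal (vertical axis, 1.7 units tall in each panel) of 1 transporter on the 4 PR+/- and the 4 PRKO arrays, with the mean and SD beside the points; the 10 transporters with the lowest p-values are shown. For Slc1a4, Slc7a1, Slc38a7, Slc1a5 and Slc38a10 all PRKO arrays lie above the PR+/- arrays, and for Slc7a4 and Slc1a6 all lie below.

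The sodium-coupled neutral carriers of the SLC38 family fall into plasma membrane carriers and carriers of inner membranes, and of 10 members 1 rose and 9 did not pass. Slc38a7 encodes SNAT7, known from human cells as the carrier that lets glutamine and asparagine out of lysosomes. It had signals of 7.14, 7.08, 7.16 and 7.11 in PR+/- and 7.50, 7.51, 7.53 and 7.29 in PRKO, with all PRKO arrays above all PR+/- arrays. It rose by 0.33 ± 0.08 (SE), which is 1.26-fold (limma adjusted p = 0.0488, close to the threshold). This call ended after quantile normalization (0.29, limma adjusted p = 0.0866), after centring each array (0.30, 0.0739), with the oocyte covariate (0.31, 0.0588), with the theca and stroma covariate (0.36, 0.124) and without any 1 array other than PRKO replicate 4 (limma adjusted p 0.0924 to 0.142).

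System A carriers, encoded by Slc38a1, Slc38a2 and Slc38a4, take up small neutral amino acids such as alanine. Slc38a4 had 6.34, 6.11, 6.26 and 5.91 in PR+/- and 5.91, 5.49, 5.66 and 5.84 in PRKO. The groups met at 5.91, where the highest PRKO array and the lowest PR+/- array lay. Its difference of -0.43 ± 0.12 did not pass (limma adjusted p = 0.0800), and it passed without PR+/- replicate 4 (-0.51, limma adjusted p = 0.0356). Slc38a2 had 11.12 ± 0.16 in PR+/- and 11.33 ± 0.16 in PRKO (SD), above the upper quartile of every array, and a difference of 0.21 with 95% limits of -0.02 to 0.44. Slc38a1 differed by 0.01 ± 0.09 in its brighter probe set, with limits of -0.18 to 0.20. A second probe set of Slc38a1, with lower signal, differed by 0.24 ± 0.09, with limits of 0.03 to 0.45 (limma adjusted p = 0.234). The 2 probe sets of that gene thus gave unlike sizes, and the limits of the first do not bound the change of the transcript.

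System N carriers, encoded by Slc38a3 and Slc38a5, move glutamine and histidine. Slc38a3, the carrier that oocytes are known to raise in mouse cumulus cells, had 5.56, 5.89, 6.16 and 6.12 in PR+/- and 5.55, 5.65, 5.48 and 5.90 in PRKO. The genotypes overlapped, and the difference of -0.29 ± 0.13 did not pass (limma adjusted p = 0.331). Slc38a5 had 7.96, 8.79, 8.25 and 9.29 in PR+/- and 7.86, 8.32, 8.17 and 8.84 in PRKO, the widest spread within a genotype of any transporter (SD 0.59 in PR+/- and 0.41 in PRKO). Its difference of -0.27 had limits of -0.85 to 0.30, so a change of that size was not detectable with these arrays.

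Slc38a10 had 7.87, 7.94, 8.06 and 8.08 in PR+/- and 8.20, 8.10, 8.36 and 8.37 in PRKO. The genotypes did not overlap, but the difference of 0.27 ± 0.09 did not pass (limma adjusted p = 0.149). Slc38a6 had 5.761, 6.051, 5.983 and 5.799 in PR+/- and 6.233, 5.999, 6.279 and 6.176 in PRKO, where 1 PRKO array lay below the highest PR+/- array, and a difference of 0.27 ± 0.09 (limma adjusted p = 0.173). Slc38a9, which encodes the lysosomal arginine sensor of the growth-controlling kinase complex mTORC1, differed by 0.13 ± 0.11, and by 0.08 ± 0.12 in its second probe set. Slc38a11 differed by -0.05 ± 0.09 and was the 1 transporter whose signal lay below the lower quartile on all 8 arrays.

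The sequences before the transcription starts are given for the 3 transporters that rose, because these genes moved in the same direction. RefSeq promoter windows on build GRCm38.p6, each 250 bases before a start and 50 after it, were at hand for 31 of the 43 transporters, 44 windows in all, and for Slc1a4, Slc7a1 and Slc38a7 among the 4 that passed. All 3 genes lie on the minus strand, and the sequences read 5′ to 3′ along the gene. The Slc1a4 window is chr11:20332710-20332963, whose last 4 bases follow the start. The Slc7a1 window is chr5:148399905-148400154, before the outermost of 2 RefSeq starts, and the Slc38a7 window is chr8:95853492-95853741. Capitals mark motif matches.
Slc1a4: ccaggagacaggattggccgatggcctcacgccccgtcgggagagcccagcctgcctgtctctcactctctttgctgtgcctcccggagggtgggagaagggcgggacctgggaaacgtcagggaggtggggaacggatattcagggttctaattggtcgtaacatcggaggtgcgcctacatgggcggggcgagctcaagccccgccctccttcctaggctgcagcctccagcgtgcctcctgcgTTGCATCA
Slc7a1: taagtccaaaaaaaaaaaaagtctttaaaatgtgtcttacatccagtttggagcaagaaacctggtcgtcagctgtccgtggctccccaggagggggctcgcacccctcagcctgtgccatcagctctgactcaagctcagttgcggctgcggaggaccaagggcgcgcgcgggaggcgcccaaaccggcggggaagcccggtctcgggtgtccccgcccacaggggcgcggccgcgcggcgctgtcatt
Slc38a7: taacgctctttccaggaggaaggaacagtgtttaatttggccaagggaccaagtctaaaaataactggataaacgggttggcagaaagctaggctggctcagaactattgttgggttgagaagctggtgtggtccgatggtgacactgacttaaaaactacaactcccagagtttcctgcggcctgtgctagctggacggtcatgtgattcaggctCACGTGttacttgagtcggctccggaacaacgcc

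Each 300-base window was searched for 3 motifs. The palindrome bound by the progesterone and glucocorticoid receptors, GNACA and TGTNC with 3 bases of any kind between them, was searched on both strands and found in 0.475% of 32851 RefSeq windows. Among the transporters it was found in 1 window, that of Slc38a11, and in none of the windows of the 3 that rose. The composite element TGATGNAA, which CEBP proteins and the amino acid response factor ATF4 bind, was searched on both strands. It was found in 3.97% of all windows and in 3 of 44 transporter windows, those of Slc1a4 and of Slc7a7, which did not pass the test. In Slc1a4 the match lies on the reverse strand and begins at position -4, across the start. The E-box CACGTG reads the same on both strands and is the core of the element bound by the lysosomal regulator TFEB. It stood in 7.15% of all windows and in 6 of 44 transporter windows. One is that of Slc38a7, at position -34, and the others are those of Slc1a6, Slc1a7, Slc36a1, Slc38a5 and Slc43a1, which did not pass the test. No match was found in either Slc7a1 window, which says only that these letters are absent from it. No window printed here held more than 1 match.

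Light chains of the SLC7 family reach the plasma membrane only when bound to a heavy chain, Slc3a2 for most and Slc3a1 for Slc7a9. None of the 6 light chains or Slc3a1 passed (limma), and Slc7a5 alone had an unadjusted p under 0.05. Slc7a5, which encodes LAT1, the importer of leucine and other large neutral amino acids, had 8.21, 8.29, 8.37 and 8.41 in PR+/- and 8.49, 8.44, 8.52 and 8.56 in PRKO. The PRKO arrays were above the PR+/- arrays by a narrow gap, and the difference was 0.18 ± 0.08 (limma adjusted p = 0.269). Slc7a8, which encodes LAT2, had 12.10 ± 0.18 and 11.99 ± 0.24 (SD), above the upper quartile of every array, and a difference of -0.11 with limits of -0.38 to 0.16. Slc7a6, which encodes an exchanger of cationic for neutral amino acids, differed by -0.11 ± 0.08, and its relative Slc7a7 by -0.09 ± 0.09. Slc7a10, a carrier of small neutral amino acids, differed by -0.10 ± 0.08. The cystine carrier Slc7a9 and its heavy chain Slc3a1 differed by 0.14 ± 0.11 and 0.22 ± 0.12, and both had signals below the median of all 8 arrays.

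The SLC6 family couples uptake to sodium and chloride, and none of its 8 members passed (limma, 1 with an unadjusted p under 0.05). Slc6a9 encodes the glycine carrier GLYT1, through which mouse eggs and early embryos take up glycine to hold their volume. It had 8.54, 8.24, 8.44 and 8.52 in PR+/- and 8.87, 8.52, 8.85 and 8.47 in PRKO. The genotypes overlapped, and the difference of 0.24 ± 0.11 had a limma adjusted p of 0.321. Slc6a6, the taurine carrier, had 11.07 ± 0.20 and 11.03 ± 0.19 (SD) and a difference of -0.04 with limits of -0.30 to 0.21. Slc6a8, which carries creatine, differed by -0.07 ± 0.10, and Slc6a17, a carrier of neutral amino acids known from synaptic vesicles, by -0.06 ± 0.09. Slc6a15, which takes up branched-chain amino acids and proline, differed by -0.01 ± 0.17, with an SD of 0.40 in PR+/-. Slc6a14, a broad carrier of neutral and cationic amino acids, differed by -0.21 ± 0.09 (limma adjusted p = 0.301), at signals below the lower quartile on 7 of 8 arrays. Slc6a19, the neutral carrier of gut and kidney, differed by -0.10 ± 0.12. Slc6a20a, a carrier of proline and betaine, differed by 0.01 ± 0.10; it has a near copy, Slc6a20b, whose transcripts its probe set may read in part.

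The glutamate and aspartate carriers of the SLC1 family had 5 negative differences in 5 genes, and none passed (limma, 1 with an unadjusted p under 0.05). All 5 had signals below the median on all 8 arrays. The median difference was 0.00 over all genes and 0.04 over those with mean signals at or above the median. Genes of lower signal thus leaned lower over the whole series, not in this family alone. Slc1a6 had 4.82, 4.81, 4.75 and 4.81 in PR+/- and 4.57, 4.43, 4.72 and 4.54 in PRKO. The PRKO arrays were all lower, and the difference was -0.23 ± 0.08 (limma adjusted p = 0.169). The glial glutamate carriers Slc1a2 and Slc1a3 differed by -0.12 ± 0.09 and -0.02 ± 0.08. Slc1a1, a glutamate carrier that also takes up cysteine, differed by -0.04 ± 0.14, and Slc1a7, a glutamate carrier of the retina, by -0.10 ± 0.09.

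Proton-coupled carriers of the SLC36 family move small amino acids such as proline and glycine, and 0 of 4 passed (limma, 0 with an unadjusted p under 0.05). Slc36a1, which is found on lysosomes, differed by 0.05 ± 0.13 and Slc36a4, a proline and tryptophan carrier, by 0.07 ± 0.09. Slc36a2 and Slc36a3 differed by 0.10 ± 0.11 and -0.14 ± 0.11. Of the SLC43 family 0 of 3 passed (limma, 0 with an unadjusted p under 0.05). Slc43a1 and Slc43a2, which let large neutral amino acids pass down their gradient, differed by 0.06 ± 0.09 and 0.11 ± 0.10. Slc43a3, known from human cells to carry purine bases, differed by -0.11 ± 0.10. Over all 43 genes the 95% limits lay within 0.5 of 0 for 34, and 15 genes had signals below the median on all 8 arrays, 10 of them with negative differences and 0 past the test. As given above, genes of lower signal leaned lower over the whole series too.

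The spread among arrays of a genotype was slightly wider for the transporters than for all genes, with a median SD of 0.136 in PR+/- and 0.155 in PRKO against 0.126 and 0.127. The mean of 19 oocyte markers also varied among arrays, from 5.99 to 6.66 in PR+/- and from 6.03 to 6.50 in PRKO, and 0 of the 19 passed (limma, 2 with an unadjusted p under 0.05). The highest oocyte mean, on PR+/- replicate 4, coincided with the highest Slc38a5 and Slc6a15 signals, and the lowest, on PR+/- replicate 1, with the lowest of both among the PR+/- arrays. Among the PRKO arrays replicate 4 had the highest oocyte mean (6.50) and the highest of both signals. The lowest of both (7.86 and 6.66) were on PRKO replicate 1, whose oocyte mean of 6.31 was above those of replicates 2 and 3 (6.03 and 6.11). With that mean as a covariate the difference of Slc38a5 was -0.13 ± 0.17 in place of -0.27 ± 0.26, and that of Slc6a15 0.07 ± 0.12 in place of -0.01 ± 0.17. In whole complexes fewer cells of a type and less RNA per cell cannot be told apart.

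**Figure D3:**
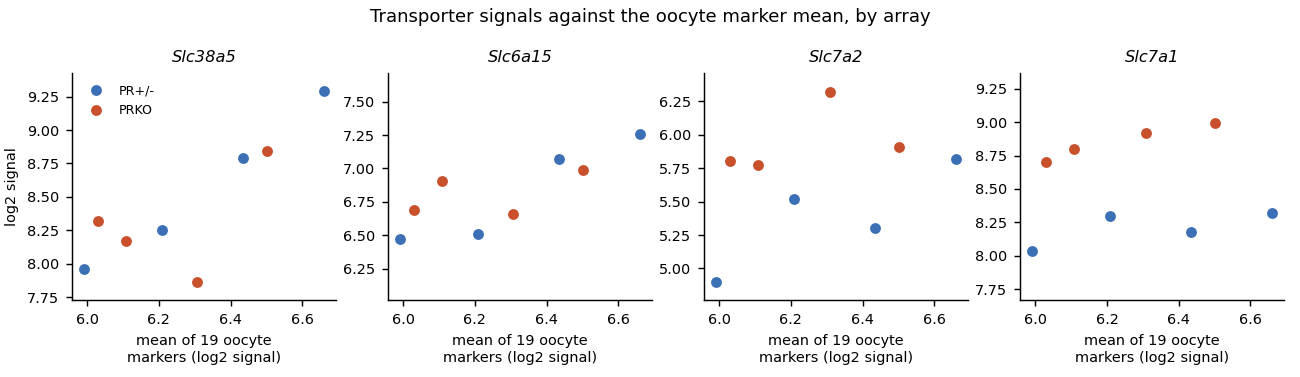
Each panel plots the log2 signal of 1 transporter (vertical axis) against the mean log2 signal of 19 oocyte markers (horizontal axis) on the 8 arrays, in blue for PR+/- and red for PRKO. Slc38a5 and Slc6a15 are highest on the array with the highest marker mean, PR+/- replicate 4, whereas for Slc7a1 the genotypes stay apart along the whole axis.

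Markers of other cells that a complex could carry along were read on the same arrays. The mean of 13 theca and stroma markers was 5.67 to 5.95 in PR+/- and 5.78 to 6.26 in PRKO, 0.22 higher on average. Of the 13, 0 passed the test and 6 had an unadjusted p under 0.05, all higher (limma), against 16.0% of all genes. Its brightest members were Ptch1 (7.79 ± 0.18 and 7.79 ± 0.18, SD) and Acta2 (7.02 ± 0.18 and 7.49 ± 0.50). The mean of 9 endothelial markers was 4.95 to 5.00 and 5.02 to 5.16, without overlap between genotypes, and 0.09 higher on average. Kdr weighs heavily in that mean: it rose by 0.80 ± 0.15 (limma adjusted p = 0.0126), and the other endothelial markers did not pass. Of the 9 differences 5 were positive and 4 negative, with Cdh5 at -0.29 ± 0.14, so the gap is not a rise of the whole list. Leukocyte markers had means of 4.41 to 4.47 and 4.39 to 4.47, led by Cd68 (5.63 ± 0.18 and 5.85 ± 0.19, SD) and Cd3e (5.37 ± 0.02 and 5.38 ± 0.16), and 0 of 12 passed (limma, 0 with an unadjusted p under 0.05). Of 8 erythrocyte markers only Slc4a1 and Alas2 were measured, with differences of 0.12 and 0.10. With the theca and stroma mean as a covariate Slc1a4 and Slc7a1 still passed and Slc7a4 and Slc38a7 did not; the part of endothelial cells in these results was not tested.

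Other carriers of amino acids, listed by family, gave 2 falls and 0 rises among 34 measured genes, and 2.92% of all genes passed. Slc7a11, the exchanger of cystine for glutamate, had 10.56, 10.35, 10.84 and 10.07 in PR+/- and 7.82, 6.58, 7.36 and 8.08 in PRKO. All PRKO arrays were far below all PR+/- arrays. Slc7a11 fell by 2.99 ± 0.27 (SE), which is 7.96-fold (limma adjusted p = 0.000154), a larger difference than that of any of the 43 transporters. Its heavy chain Slc3a2, which also serves Slc7a5, Slc7a6, Slc7a7, Slc7a8 and Slc7a10, had 12.13 ± 0.09 and 12.27 ± 0.06 (SD) and a difference of 0.14 with limits of -0.02 to 0.31. Slc38a8 fell by 0.32 ± 0.08 (limma adjusted p = 0.0455) at signals of 4.79 to 5.22, and the call ended in 15 of 21 alternatives, among them quantile normalization (limma adjusted p = 0.0518), centring (0.0522), trend and robust moderation (0.0503), the theca and stroma covariate (0.170) and the loss of any 1 array other than PR+/- replicate 4 (0.0749 to 0.123). Slc17a5, which exports sialic acid from lysosomes, was at 0.42 ± 0.10 (limma adjusted p = 0.0564), and Slc16a10, an aromatic amino acid carrier, at 0.30 ± 0.13 (0.290).

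The amino acid response list holds mostly genes that ATF4 and its partners switch on when amino acids run short. Atf4 itself and Eif2ak4, which acts upstream of it, are also in the list. Of 35 measured genes 1 rose, 3 fell and 31 did not pass, and 2.92% of all genes passed. Of the differences 25 were positive and 10 negative, with a median of 0.11. An unadjusted p under 0.05 (limma) was found for 13 higher and 3 lower genes. Over all genes it was found for 16.0%, with 1854 higher and 1339 lower. Of the response genes 34 had a mean signal at or above the median, and all genes with such signals had a median difference of 0.04. Ddit4, an inhibitor of mTORC1, fell by 1.10 ± 0.14 (SE), from 9.78 ± 0.12 to 8.68 ± 0.31 (SD), with a limma adjusted p of 0.00117. Vldlr, a lipoprotein receptor, fell by 0.63 ± 0.11 and Cebpb, a transcription factor of the luteinizing follicle, by 0.57 ± 0.10, with limma adjusted p of 0.00854 and 0.00966; the Vldlr call ended with the theca and stroma covariate (-0.55, limma adjusted p = 0.0718). Phgdh, the first enzyme of serine synthesis, rose by 0.40 ± 0.09 (limma adjusted p = 0.0301). Atf4 itself was at 0.24 ± 0.10 and Asns, asparagine synthetase, at 0.22 ± 0.10, neither past the test. Atf3 (0.45 ± 0.33) and Mthfd2 (0.34 ± 0.12) had the largest differences among those that did not pass. The Phgdh call ended after quantile normalization (limma adjusted p = 0.0524), after centring (0.0630) and without PR+/- replicate 3 or 4 or PRKO replicate 2, 3 or 4 (limma adjusted p 0.0636 to 0.0972).

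The amino acid sensing list holds mTORC1, the Rag GTPases and their regulators, and also the transcription factor genes Tfeb and Tfe3. Of 39 measured genes Sesn3, a sestrin that restrains mTORC1, alone passed and 38 did not, and 2.92% of all genes passed. The median difference was 0.05, and 6 higher and 0 lower genes had an unadjusted p under 0.05 (limma), a share near the 16.0% of all genes. Sesn3 had 7.91, 7.87, 7.81 and 7.99 in PR+/- and 8.19, 8.12, 8.26 and 8.38 in PRKO. All PRKO arrays were above, and the rise of 0.34 ± 0.08 had a limma adjusted p of 0.0479, a call that ended in 15 of 22 alternatives, among them quantile normalization (0.0793), centring (0.101), the theca and stroma covariate (0.195) and the loss of any 1 array (0.0528 to 0.135). Tbc1d7, a subunit of the TSC complex, was at 0.39 ± 0.14 and Itfg2 at 0.33 ± 0.09 (limma adjusted p = 0.209 and 0.0776).

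**Figure D4:**
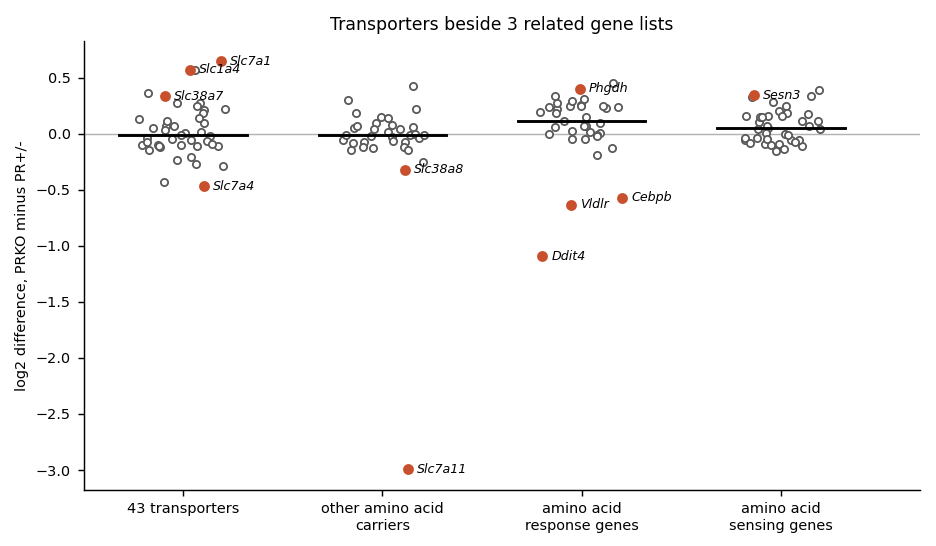
Points give the log2 difference (PRKO minus PR+/-, vertical axis) of each measured gene of the 43 transporters and of 3 related lists, filled and named where the adjusted p was under 0.05, with the list's median as a black bar. Slc7a11 at -2.99 lies far below every one of the 43 transporters, whose differences run from -0.47 to 0.65.

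A two-sided exact permutation test over the 70 arrangements of the 8 arrays gave p = 0.0286, the smallest that this design allows, for Slc1a4, Slc7a1, Slc7a4 and Slc38a7 alike, and also for Slc1a5, Slc38a10, Slc1a6 and Slc7a5, whose genotypes did not overlap either but which did not pass over all genes. It gave 0.0571 for Slc38a4 and Slc38a6 and 0.0857 for Slc7a2.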

How the data were processed

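Biotin-labelled cRNA from 8 pools of cumulus oocyte complexes was hybridised to Affymetrix whole-transcript arrays, per the labels' protocols. The deposited values are log2 signals for 35556 probe sets; the base was read from their range of 1.19 to 14.08. The submitters' processing notes name Partek; how background, scaling and probe summaries were handled was not given in the sources used here. Depth does not apply to arrays, whose number limits the precision. Titles number the arrays as biological replicates of pooled animals.

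The 21789 probe sets with 1 gene symbol in the platform annotation were fitted without a signal filter by limma 3.58.1 in R 4.3.3 (two-sided moderated tests from lmFit and eBayes, with 6.04 prior degrees of freedom), with Benjamini-Hochberg adjustment over all of them and 0.05 as the threshold; 95% limits are unadjusted. Not used were 1621 probe sets with several symbols and 12146 without one. Each gene was read from its probe set with the highest mean. Symbols of 21698 probe sets matched RefSeq (GRCm38.p6) by Entrez identifier. On simulated data for this comparison, with 19938 genes, the fit recovered 82.1% of 1.5-fold, 95.5% of 2-fold and 100% of 4-fold changes. The simulated noise was independent between genes and arrays, unlike variation that genes share on real arrays. Changes below 1.5-fold, where most of the transporters lay, were not simulated, so these shares do not give the power for them. Tables and plots used Python 3.11.15 with pandas 2.3.3, numpy 2.4.6 and matplotlib 3.10.9.

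Members and lists were chosen with earlier results of these data known. All 43 members are named: those past the threshold, and at least the 6 others with the largest differences, with the value on every array; in other lists, genes past the threshold and the 2 largest others, and the 2 brightest markers of each cell type. Array values of Slc38a10, Slc6a9, Slc7a5 and Slc1a6 were added after they were seen. The 22 alternatives were quantile normalization, centring, 2 signal filters, array weights, moderation with a trend and robust prior, no moderation, a test of every probe set, averaging over the probe sets of a gene, a threshold of 0.1, a minimum change of 1.5-fold, a replicate block, 2 marker covariates and each array left out.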

Additional observations from a re-analysis of the deposited data

Results flagged for a closer look

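A Dixon test at its 95% critical value of 0.829 for 4 arrays was run in each genotype for the 43 transporters, 86 groups in all, and marked 7 arrays; chance marks about 1 group in 20. The Slc7a3 signal of 5.49 on PRKO replicate 3 stood above the others of its genotype at 4.71 to 4.75. The Slc38a7 signal of 7.29 on PRKO replicate 4 stood below 7.50, and without that array its rise was 0.39 with a limma adjusted p of 0.0290. Slc1a2 at 4.18 on PRKO replicate 2 stood below 4.44 to 4.47. In PR+/-, Slc1a6 at 4.75 on replicate 3 and Slc36a3 at 4.40 on replicate 4 were low, and Slc38a11 at 3.06 on replicate 1 and Slc43a1 at 4.88 on replicate 2 were high. Apart from Slc38a7, these genes did not pass the test with or without the array.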

How the results depend on the processing

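The rises of Slc1a4 and Slc7a1 passed when each array in turn was left out (limma adjusted p up to 0.00737 and 0.0129). Over the 22 alternatives Slc1a4 lost its call only to the rule of a 1.5-fold change (1.48-fold) and Slc7a1 only without moderation (adjusted p = 0.0619). Of the 39 transporters that did not pass, 36 did not pass under any alternative that could be run; the sign changed in some alternative for 13, whose differences were at most 0.145 in size. Without moderation of the variance 106 genes and 1 transporter passed, 1 other carrier and 0 response and 0 sensing genes. With all probe sets tested, counts were 206, 2, 1 other carrier and 0 sensing genes; with a fold of at least 1.5 besides, 277, 1, 1 other carrier, 2 response and 0 sensing genes; with the theca and stroma covariate, 266, 2, 1 other carrier and 0 sensing genes. With an adjusted p under 0.1, 932 genes, 6 transporters and 3 sensing genes passed. After quantile normalization or centring 3 transporters, 1 other carrier and 0 sensing genes passed, and with trend and robust moderation 1 other carrier did. With only mean signals at or above the median kept, 5 of 25 transporters and 3 of 38 sensing genes passed, against 641 of 10917 genes. In the main limma test an unadjusted p under 0.05 was found for 6 of 39 sensing genes, all higher. It was found for 16 of 35 response genes, 13 higher and 3 lower, and for 16.0% of all genes, 1854 higher and 1339 lower. Leaving out 1 array gave 301 to 532 genes, 2 to 6 transporters, 1 to 2 other carriers, 3 to 5 response genes and 0 to 1 sensing genes; the gene count was 384, 363 and 306 without PR+/- replicate 1, 2 or 3 and 337, 301 and 383 without PRKO replicate 2, 3 or 4. Same-numbered arrays correlated in their deviations at 0.121, 0.080, 0.145 and 0.153. The highest correlation with a differently numbered array was 0.046, 0.216, 0.147 and 0.011 in the same order, so these values do not settle whether arrays were paired. The labels state no shared litter or day, and the main fit had no block. With a replicate block 671 genes, 3 transporters, 1 other carrier and 0 sensing genes passed. The calls of Slc38a7 (limma adjusted p = 0.0626), Slc38a8 (0.0689) and Sesn3 (0.0509) were then not made. The causes were not tested. The number of arrays and unknown background limit the low signals, and folds of such genes may be understated.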
